A study of Mus musculus with 6 samples.

Results

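Transcripts known from the choroid plexus, the epithelial tissue that hangs in the brain ventricles, were followed in dissected mouse amygdala. The genes were Ttr, Kl, Clic6, Kcnj13, Sostdc1, Kcne2, Calml4, Igf2, Col8a1 and Rarres2, taken by the gene symbol of the platform annotation. These 10 genes, of 18193 with a symbol of their own on the array, are read by 21 of the 45037 probe sets. The tissue came from male 129S1/SvImJ (S1) mice, an inbred strain, aged 8 to 10 weeks. All 6 had undergone fear extinction training, and the amygdala was taken 2 h later. In the zinc diet group (labelled ZnR) were mice 3, 7 and 10, and in the control diet group mice 1, 9 and 11, as numbered in the labels. The labels do not give the zinc content of either diet. Each mouse gave 1 array, and the values are log2 levels per probe set, 1 unit being a doubling.

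The choroid plexus lines fronds of blood vessels with cuboidal epithelium and secretes most of the cerebrospinal fluid. Its cells carry ion channels and transporters on the ventricular side, are joined by tight junctions, and release carrier proteins and growth factors into the fluid. The lateral ventricle, which holds a plexus, runs close to the amygdala in the temporal part of the brain, but the plexus is not part of the amygdala. The labelled tissue had its neuronal transcripts on all 6 arrays: Gad1, the enzyme of GABA synthesis, lay between 13.13 and 13.45, and Slc17a6, a vesicular glutamate transporter, between 10.77 and 11.20. Array medians were 4.04 to 4.09, and arrays correlated at 0.991 to 0.996 across the probe sets tested. Control mouse 9 stood apart from the other 5 mice in the genes described here, and the diet differences and correlations are given with and without it.

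Promoter sequences are shown for Kcnj13, Kcne2 and Calml4, 3 genes whose highest-mean probe set was above 4 in control mouse 9 alone, and for the Igf2 start that held a match to the OTX core. They are the 300 bases from 250 before to 50 after the RefSeq start, in GRCm38.p6, written 5′ to 3′ on the strand of the gene, and 6 of the 10 genes had an entry. Capitals mark matches on either strand to TAATCC (the core bound by OTX homeodomain factors), TGTTTAC (a forkhead core) or TATAAA (the TATA box).
Kcnj13 (chr1:87394680-87394979, minus strand): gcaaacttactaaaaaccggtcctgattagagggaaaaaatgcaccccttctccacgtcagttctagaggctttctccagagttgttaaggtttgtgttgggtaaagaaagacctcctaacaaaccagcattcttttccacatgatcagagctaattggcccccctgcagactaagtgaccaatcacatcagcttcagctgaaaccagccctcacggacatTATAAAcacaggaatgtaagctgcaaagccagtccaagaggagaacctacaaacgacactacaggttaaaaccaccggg
Kcne2 (chr16:92292139-92292438, plus strand): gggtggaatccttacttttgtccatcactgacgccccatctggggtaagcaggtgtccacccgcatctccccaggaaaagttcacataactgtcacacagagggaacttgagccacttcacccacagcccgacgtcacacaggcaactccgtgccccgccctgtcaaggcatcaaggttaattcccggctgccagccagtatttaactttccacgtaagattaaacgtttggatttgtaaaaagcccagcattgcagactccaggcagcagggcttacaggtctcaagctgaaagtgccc
Calml4 (chr9:62857854-62858153, plus strand): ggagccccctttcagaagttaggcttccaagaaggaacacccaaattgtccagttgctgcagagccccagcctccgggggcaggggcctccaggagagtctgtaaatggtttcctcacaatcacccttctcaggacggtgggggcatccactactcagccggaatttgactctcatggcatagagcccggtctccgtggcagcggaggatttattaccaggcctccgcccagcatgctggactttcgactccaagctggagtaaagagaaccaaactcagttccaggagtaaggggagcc
Igf2 (chr7:142658755-142659054, minus strand): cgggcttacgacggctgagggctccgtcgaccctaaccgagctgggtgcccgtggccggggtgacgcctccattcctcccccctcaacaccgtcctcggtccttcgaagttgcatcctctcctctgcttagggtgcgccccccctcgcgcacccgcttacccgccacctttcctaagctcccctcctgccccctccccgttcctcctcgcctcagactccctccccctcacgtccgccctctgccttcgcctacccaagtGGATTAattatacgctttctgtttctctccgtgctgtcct

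The only match in the Kcnj13 promoter was a TATAAA that began 29 bases before the start, at position -29. The Igf2 window shown, picked for its match, held the OTX core on the minus strand relative to the gene, at position 11 after the start. It was the only one with that core among the 10 windows of the 6 genes, and the other Igf2 starts held none. The windows of Kcne2 and Calml4 shown here held none of the 3 words, which says only that these letters are not in these windows. Over all 32851 promoter windows, 7.06% held the OTX core, 3.65% the forkhead core and 13.6% the TATA box. The words did not overlap each other in these windows.

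All 10 genes had their highest level in control mouse 9, where 15.7% of all genes had theirs. In 9 of the 10, all but Rarres2, that mouse lay at least 1 log2 unit above every other mouse, whichever diet the others had. The same held for 29 of 18193 genes, or 0.159%. A range of at least 1 unit over the 6 mice was seen in the same 9 genes, against 1.73% of all genes. Zinc diet mouse 10 was lowest in 4 of the 10, Ttr, Clic6, Calml4 and Col8a1, where 12.9% of all genes were lowest. In each of the other 5 mice, between 0 and 2 genes stood that far above all others. The 10 genes were chosen with this pattern known, so these counts describe it and do not test it. In bulk tissue, more cells of a type and more RNA per cell cannot be told apart.

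**Figure D1:**
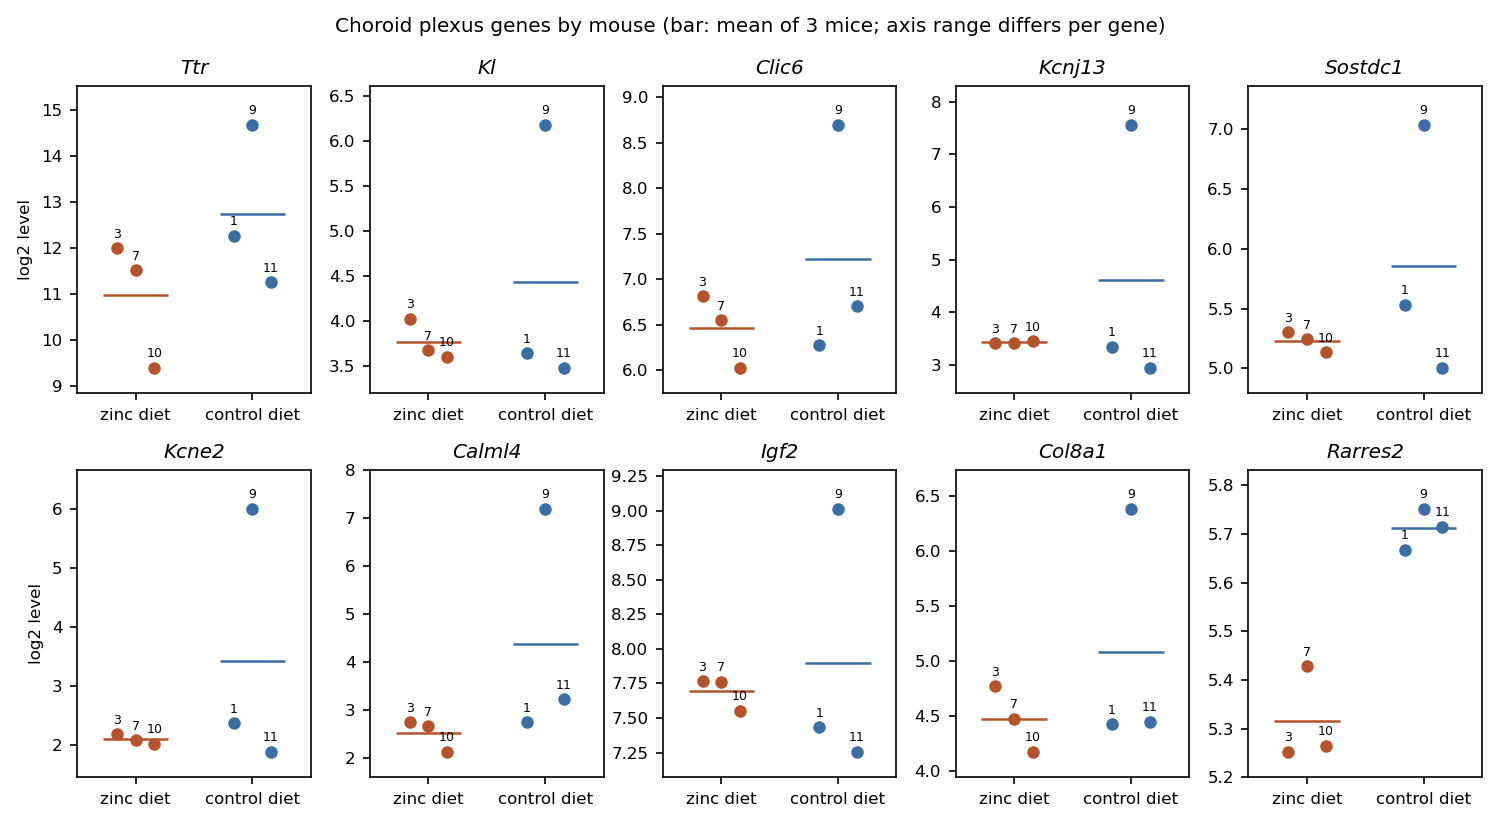
Log2 level of each gene's probe set with the highest mean, by diet (zinc diet left, control diet right); each point is 1 mouse with its label number, and bars are the mean of 3 mice. Control mouse 9 is the highest point in all 10 panels, by at least 1 unit in 9 of them, and in the panel of Rarres2 the 2 diets are separate, with the zinc diet lower.

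Ttr encodes transthyretin, which carries thyroxine and retinol-binding protein and is the best-known secreted product of the choroid plexus. Its log2 level was 11.99, 11.52 and 9.39 in zinc diet mice 3, 7 and 10, against 12.27, 14.68 and 11.25 in control mice 1, 9 and 11. Control mouse 9 was high, zinc diet mouse 10 was low, and the 4 other mice lay within about 1 unit of each other with the diets interleaved. The level in control mouse 9 was 8.96-fold the median of the other 5. That level was close to the top of the scale. The highest value of any probe set was 14.53 to 14.59 on the other 5 arrays, and on that of control mouse 9 it was 14.72, itself a Ttr probe set. Whether the signal was saturated was not tested, as no saturation measure was used here.

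The 3 other Ttr probe sets ordered the 6 mice in the same way, with a Spearman correlation of 1 to the probe set above. On the a design probe set the levels were 9.83, 9.23 and 6.36 in zinc diet mice 3, 7 and 10, against 9.94, 14.19 and 9.03 in control mice 1, 9 and 11. Zinc diet mouse 10 lay 1.51 to 2.66 units below the next lowest mouse over the 4 probe sets. Among all genes on the array Ttr was the only one in which that mouse lay at least 1 unit below every other (0.0055% of genes). The range of Ttr was 5.30 units over the 6 mice and 2.88 units over the 5 without control mouse 9. All 4 probe sets are of designs (a, s and x) that can match more than 1 transcript.

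**Figure D2:**
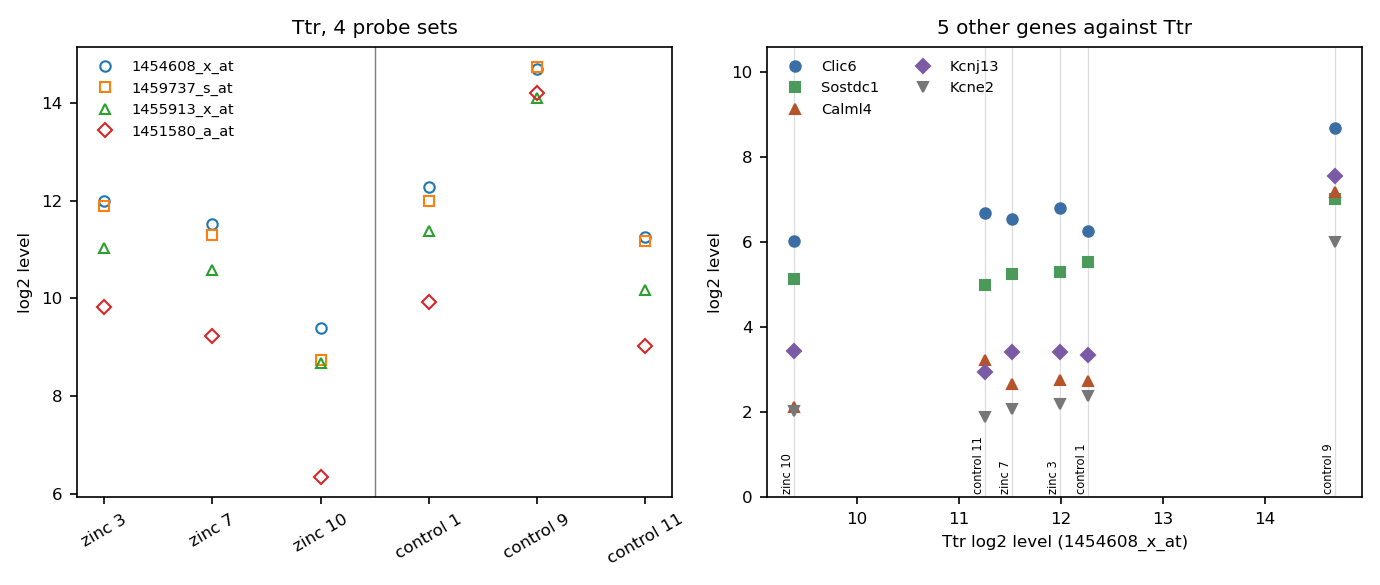
Left, log2 level of Ttr on its 4 probe sets in each mouse, zinc diet mice left of control diet mice; right, log2 level of 5 other choroid plexus genes against Ttr, 1 point per gene and mouse, with vertical lines naming the mouse. The 4 Ttr probe sets give 1 order of mice, with zinc mouse 10 lowest and control mouse 9 highest. The 5 other genes are high in control mouse 9. Over the other 5 mice they span 0.49 units (Kcne2) to 1.09 units (Calml4), where Ttr spans 2.88 units.

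The ion channel genes divided into those measured in 1 mouse and those measured in all. Kcnj13 encodes Kir7.1, an inward rectifier potassium channel of the ventricular face of the epithelium. Its level was 3.41, 3.41 and 3.45 in zinc diet mice 3, 7 and 10, against 3.34, 7.56 and 2.94 in control mice 1, 9 and 11. Every mouse but control mouse 9 was below 4, near the low end of the scale, where a value cannot be told from background. Kcne2, a potassium channel beta subunit, was at 2.19, 2.09 and 2.03 in zinc diet mice 3, 7 and 10, against 2.37, 6.01 and 1.89 in control mice 1, 9 and 11. Again a single mouse was above 4, and the diets overlapped among the other 5.

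Clic6, of the chloride intracellular channel family, was measured well above the low end in all mice. It had 6.81, 6.55 and 6.03 in zinc diet mice 3, 7 and 10, against 6.28, 8.70 and 6.70 in control mice 1, 9 and 11. Leaving control mouse 9 aside, zinc diet mouse 10 was lowest, as for Ttr, and control mouse 1 was next. Its second probe set also had control mouse 9 highest, at 6.64 against 4.72 to 5.27 in the other 5, but on it control mouse 1 was lowest.

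Of the remaining epithelial genes, Calml4, which encodes a calmodulin-like protein of microvillus adhesion complexes, rested on control mouse 9. Its level was 2.75, 2.66 and 2.13 in zinc diet mice 3, 7 and 10, against 2.74, 7.19 and 3.22 in control mice 1, 9 and 11. That mouse lay 4.45 units above the median of the other 5 for Calml4, 4.15 units for Kcnj13 and 3.92 units for Kcne2, but those medians are below 4, so the sizes are measured against values that cannot be told from background. For Ttr, measured in all mice, the separation was 3.16 to 4.97 units over the 4 probe sets. Kl encodes klotho, a membrane protein that acts as a co-receptor for fibroblast growth factor 23. It had 4.02, 3.67 and 3.60 in zinc diet mice 3, 7 and 10, against 3.64, 6.17 and 3.47 in control mice 1, 9 and 11. Its second probe set stayed under 4 on all 6 arrays.

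Genes of secreted signals and matrix were measured in all mice. Sostdc1, a secreted antagonist of BMP and Wnt signalling, was at 5.30, 5.24 and 5.14 in zinc diet mice 3, 7 and 10, against 5.53, 7.03 and 5.0 in control mice 1, 9 and 11. Igf2, an imprinted growth factor gene known from choroid plexus and meninges, was at 7.77, 7.76 and 7.55 in zinc diet mice 3, 7 and 10, against 7.43, 9.01 and 7.25 in control mice 1, 9 and 11. Outside control mouse 9, all 3 zinc diet mice were above both controls for Igf2. This was so in 2 of the 10 genes, the other being Kcnj13, and in 1909 of all 18193 genes. Col8a1, the alpha 1 chain of type VIII collagen, was at 4.77, 4.47 and 4.17 in zinc diet mice 3, 7 and 10, against 4.43, 6.38 and 4.45 in control mice 1, 9 and 11. The separation of control mouse 9 from the median of the other 5 was 1.79 units for Sostdc1, 1.46 for Igf2 and 1.93 for Col8a1, smaller than for Ttr.

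Probe sets of a gene did not all register it. Of the 21 probe sets, 5 stayed under 4 on all 6 arrays: 1 each of Kl, Igf2 and Rarres2 and 2 of Col8a1. Of the 21, 18 had their highest value in control mouse 9, where 16.9% of all probe sets had theirs. The exceptions were 2 probe sets of Rarres2 and 1 of Col8a1, which ranged over 0.78, 0.29 and 0.24 units.

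Rarres2 encodes chemerin, a secreted ligand of the receptor Cmklr1, and is known from ependyma and many other tissues besides the plexus. Its level on the probe set with the highest mean was 5.25, 5.43 and 5.27 in zinc diet mice 3, 7 and 10, against 5.67, 5.75 and 5.72 in control mice 1, 9 and 11. The diets did not overlap, and control mouse 9 was only 0.036 units above control mouse 11. On a second probe set the levels were 4.46, 4.76 and 4.32 in zinc diet mice 3, 7 and 10, against 4.89, 5.09 and 5.10 in control mice 1, 9 and 11, again without overlap. The third probe set stayed under 4, with 2.75 ± 0.15 in zinc diet mice and 2.80 ± 0.041 in control diet mice (SD, n = 3 each).

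The diets were compared with limma over the 22877 probe sets with a mean level of at least 4, which took in 13 of the 21 probe sets and 8 of the 10 genes. Kl and Kcnj13 passed that filter only through control mouse 9, and Kcne2 and Calml4, which did not pass, were taken from the same fit with no filter. After Benjamini-Hochberg adjustment 0 of the 13 probe sets passed an adjusted p of 0.05, as did 0% of all those tested. At an unadjusted p under 0.05, 2 of the 13 were lower in zinc diet mice, beside 2.75% of all probe sets tested (1460 of them, or 6.38%, in either direction). Both were of Rarres2, and they were also the 2 with no overlap and the zinc diet lower, a pattern seen in 5.33% of probe sets tested.

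Average levels were lower in zinc diet mice for all 10 genes, as for 49.3% of all genes on the array. The median log2 change of the 10 was -0.71, beside 0.0019 over all genes. Without control mouse 9 the median of the 10 was -0.027 and 6 of them were lower, beside 51.8% of all genes. The 95% confidence intervals were wide for every gene except Rarres2. Ttr averaged 10.97 ± 1.39 in zinc diet mice and 12.73 ± 1.76 in control diet mice (SD, n = 3 each). Its log2 change was -1.77, with an interval of -4.14 to 0.61 (limma adjusted p = 0.83). Without control mouse 9 the change was -0.79 and the interval -2.79 to 1.21, so a decrease of several fold and no change were both within it.

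For Calml4 the log2 change was -1.87 with all 6 mice and -0.47 without control mouse 9, with limma adjusted p-values of 0.93 and 0.90. Kcne2 gave -1.32 and, without that mouse, -0.029 (95% confidence interval -0.39 to 0.34). Clic6 gave -0.76 and -0.026 (-0.66 to 0.61), and Sostdc1 -0.63 and -0.041 (-0.46 to 0.37). In 4 genes the sign turned: Kcnj13 had -1.19 over all mice and 0.28 without control mouse 9, Kl with -0.67 and 0.21, Col8a1 with -0.61 and 0.036, and Igf2 with -0.21 and 0.35. The interval of Igf2 without that mouse was 0.076 to 0.63, and its limma adjusted p was 0.68. None of these differences passed in either fit.

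Rarres2 gave nearly the same value with and without control mouse 9. It averaged 5.32 ± 0.098 in zinc diet mice and 5.71 ± 0.042 in control diet mice (SD, n = 3 each). The log2 change was -0.40 ± 0.080 (SE) with an interval of -0.59 to -0.21, and -0.38 (interval -0.60 to -0.15) without that mouse. It did not pass after adjustment (limma adjusted p = 0.43, with 0.23 to 0.89 over the settings tried). The second probe set gave -0.51 ± 0.13 (SE) and the third -0.054 ± 0.095 (SE). The 2 probe sets that differed are of the s design, which can match related transcripts.

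**Figure D3:**
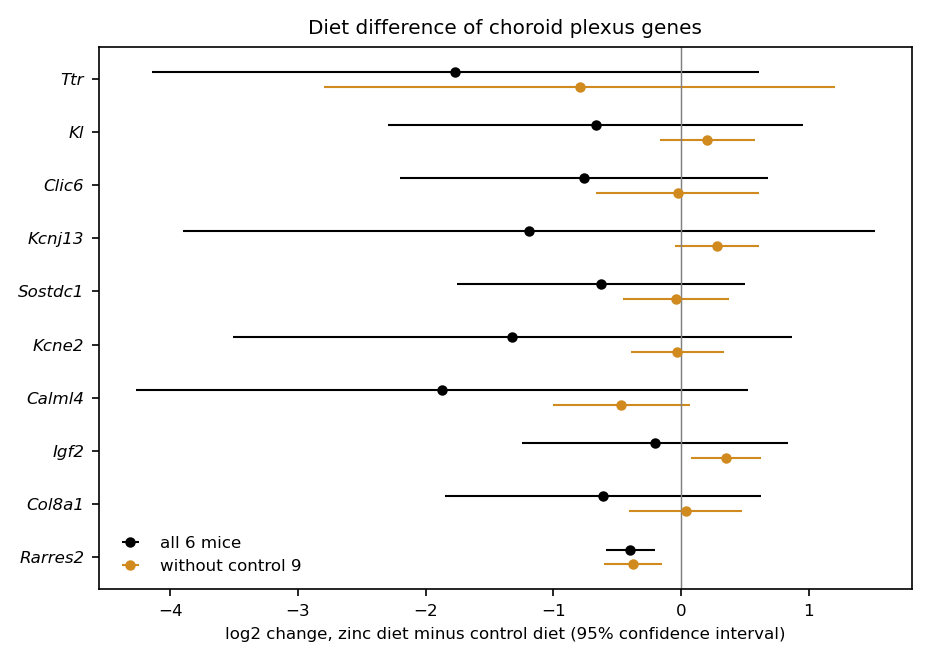
Log2 change of each gene, zinc diet minus control diet, with its 95% confidence interval from limma, with all 6 mice (black) and without control mouse 9 (orange). With all mice every point is below 0 and only the interval of Rarres2 (-0.59 to -0.21) leaves 0 out; without control mouse 9 the points lie on both sides of 0, and those of Rarres2 and Igf2 have intervals that leave 0 out, with limma adjusted p of 0.55 and 0.68.

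Likeness to Ttr was taken as Pearson's r of log2 levels over the 6 mice. It was between 0.63 and 0.89 for the 9 other genes, with a median of 0.84, beside a median of -0.14 over all genes on the array. In 6 of the 9 it was at least 0.8, as in 2.35% of all other genes. The highest were Col8a1 (r = 0.89, exact permutation p = 0.015, Spearman's rho = 0.66, exact permutation p = 0.18) and Clic6 (r = 0.88, exact permutation p = 0.025, rho = 0.60, exact permutation p = 0.24). On the second Clic6 probe set r was 0.65 and rho was -0.14. Sostdc1 had r = 0.87 (exact permutation p = 0.021) and rho = 0.94 (exact permutation p = 0.017). Adjusted over all probe sets tested, the smallest adjusted p of r with Ttr was 0.68, so none passed. With 6 mice the exact permutation p cannot fall below 0.0014, and the other Ttr probe sets also had an adjusted p of 0.68. The adjusted values therefore cannot decide whether any gene is like Ttr.

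These correlations were lower without control mouse 9. The median r of the 9 genes was then 0.58, beside -0.16 over all other genes on the array. None of the 9 reached 0.8, which 3.77% of all other genes did. Without the mice farthest from the Ttr median, control mouse 9 and zinc diet mouse 10, the median over 4 mice was 0.26. Over all other genes it was -0.22, and in the 9 genes r ran between -0.63 for Calml4 and 0.97 for Kcne2. Over those 4 mice the range of Ttr was about 1 unit, and Kcne2 and Calml4 were below 4, so the sign of r there has little behind it. Over the 5 mice without control mouse 9, r with Ttr was 0.76 for Col8a1, 0.62 for Clic6 and 0.60 for Sostdc1. It was 0.42 for Rarres2 and 0.096 for Igf2, and all of these genes were above 4 in those mice. The second Clic6 probe set, at 4.72 to 5.27 there, had r = -0.79. For Calml4, Kcne2 and Kcnj13 the 5 values were below 4, and their r there is a likeness of values that cannot be told from background.

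Among genes outside the 10 with a highest level of at least 6 and a range of at least 1 unit, 184 in all, Fam81a was most like Ttr. It had 10.58, 10.37 and 9.98 in zinc diet mice 3, 7 and 10, against 10.46, 11.09 and 10.33 in control mice 1, 9 and 11, with r = 0.99 over the 6 mice and 0.96 without control mouse 9. Ecrg4, the gene of a secreted peptide precursor known from the choroid plexus, was next (r = 0.89). It had 3.56, 3.66 and 2.65 in zinc diet mice 3, 7 and 10, against 3.63, 9.06 and 3.02 in control mice 1, 9 and 11 and was under 4 in every mouse but that one, so no r is read without it. The 10 that followed had r between 0.72 and 0.88: Igfbp2, Pbxip1, Slc2a12, Hemk1, Pcolce2, Laptm4a, 1700007K13Rik, Map2k2, Cdkn1c and Nfkbia. Without control mouse 9 their r ran between -0.49 for Cdkn1c and 0.83 for Map2k2, with 0.32 for Slc2a12, 0.38 for Pcolce2 and 0.39 for Laptm4a. Of the 12, 4 reached the level of 6 only in control mouse 9, namely Ecrg4, Slc2a12, Pcolce2 and Cdkn1c.

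Most further genes known from choroid plexus epithelium were highest in the same mouse. Of 28 written, 25 had a probe set with a symbol of its own. In control mouse 9, 19 of the 25 were highest (15.7% of all genes were). There 12 of the 25 lay at least 1 unit above every other mouse, beside 0.159% of all genes. Otx2, the homeobox factor needed to form the choroid plexus, had 2.52, 2.33 and 1.82 in zinc diet mice 3, 7 and 10, against 2.31, 5.31 and 2.41 in control mice 1, 9 and 11. Folr1, the folate receptor alpha gene, had 2.96, 3.03 and 2.62 in zinc diet mice 3, 7 and 10, against 2.97, 5.63 and 3.04 in control mice 1, 9 and 11. Both were under 4 in every mouse but control mouse 9. The median log2 change of the 25 was -0.26, 22 were lower on average in zinc diet mice (49.3% of all genes were), and 0 passed the adjusted p of 0.05. Without control mouse 9 the median was -0.026 and 17 of the 25 were lower, beside 51.8% of all genes.

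The list's mean level was 3.72 to 3.80 in zinc diet mice and 3.71 to 5.0 in control diet mice, with the 5.0 in control mouse 9. Of the 25 genes, 9 stayed under 4 on all 6 arrays. Htr2c, the serotonin 2C receptor gene, which neurons also express, was 11.95 in control mouse 9 and 11.99 to 12.11 in the others, so it was lowest there. Of the 29 genes at least 1 unit above all other mice in control mouse 9, 9 were among the 10 genes described here, 12 were from this list, 1 was ependymal, 1 was meningeal and 6 were in no list. The 6, named after their values were seen, were Col8a2, Tmprss11a, Mdfic, Rdh5, Cdkn1c and Rbm47. Col8a2 encodes the alpha 2 chain of type VIII collagen, the partner of Col8a1.

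**Figure D4:**
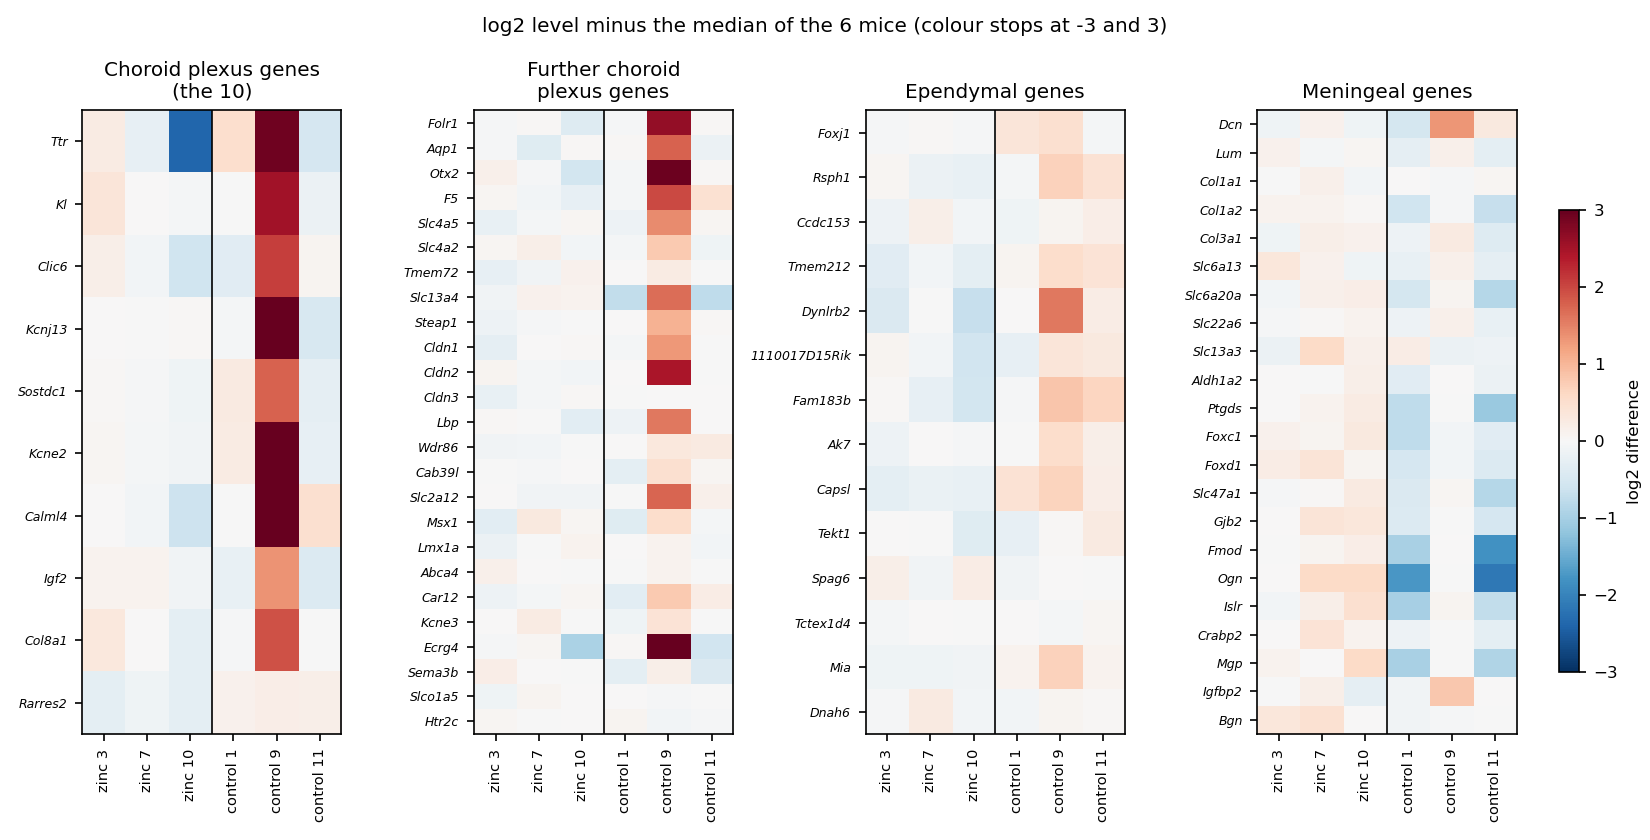
Log2 level minus the median of the 6 mice, as colour (red higher, blue lower, stopping at -3 and 3), for the 10 choroid plexus genes, further choroid plexus genes, ependymal genes and meningeal genes; columns are mice, zinc diet left of the line and control diet right of it. Control mouse 9 is red for most genes of both choroid plexus panels (at least 1 unit above every other mouse in 9 of 10 and in 12 of 25), and control mice 1 and 11 are blue for several genes of the meningeal panel, such as Ogn and Fmod.

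Markers of neighbouring cell types were read on the same arrays. Ependymal cells are the ciliated lining of the ventricles. Of their 14 genes 12 were lower on average in zinc diet mice (49.3% of all genes were). In 4 of the 14 all 3 zinc diet mice were below all 3 controls (5.93% of all genes), and 0 passed. Without control mouse 9, 12 of the 14 were lower (51.8% of all genes were), with a median log2 change of -0.19, beside -0.31 with all mice. The list's mean was 3.37 to 3.55 in zinc diet mice and 3.60 to 4.06 in control diet mice, highest in control mouse 9, and 7 of the 14 stayed under 4 on all arrays. Capsl had 4.09, 4.17 and 4.15 in zinc diet mice 3, 7 and 10, against 4.79, 5.04 and 4.57 in control mice 1, 9 and 11. Dynlrb2, a dynein light chain gene, had 3.19, 3.63 and 2.93 in zinc diet mice 3, 7 and 10, against 3.63, 5.20 and 3.84 in control mice 1, 9 and 11, and Fam183b ranged over 1.39 units. The part of ependyma in the values of Rarres2 was not tested.

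Meningeal and fibroblast genes followed another pattern. Of 22, 20 were higher on average in zinc diet mice, where 49.3% of all genes were lower. In 9 of the 22 all 3 zinc diet mice were above all 3 controls (6.41% of all genes), and 0 passed. With control mouse 9 left out, 21 of the 22 were higher, beside 8770 of all 18193 genes. Their median log2 change was then 0.54, beside 0.41 with all mice. Ogn, a small proteoglycan gene, had 5.38, 5.93 and 5.94 in zinc diet mice 3, 7 and 10, against 3.63, 5.36 and 3.22 in control mice 1, 9 and 11. Fmod had 7.19, 7.27 and 7.40 in zinc diet mice 3, 7 and 10, against 6.23, 7.20 and 5.37 in control mice 1, 9 and 11, and Dcn was highest in control mouse 9, at 8.43. The mean of the list was 5.30 to 5.46 in zinc diet mice and 4.73 to 5.39 in control diet mice, with control mouse 9 at 5.39 and the other controls at 4.79 and 4.73. Igf2 ran the same way over those other 5 mice, with both of controls 1 and 11 below all zinc diet mice, as in 1909 of all 18193 genes. The part of meninges in the value of Igf2 was not tested.

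In 4 of 5 lists of other cell types the mean of control mouse 9 was the lowest of the 6 mice. Over the whole array, 23.2% of all genes were lowest in that mouse. In the endothelial list it was the highest of the controls. Mean levels of brain endothelial genes were 7.51 to 7.58 in zinc diet mice and 7.41 to 7.55 in control diet mice. The 7.55 was in control mouse 9, below only zinc diet mouse 7. Of the 9 genes, 3 were highest in control mouse 9 (15.7% of all genes were) and 0 lay a unit above all others there. Red blood cell genes, of which 3 of 5 had a probe set, stayed under 4 throughout, where values cannot be told from background. Their mean was 2.68 to 2.70 in zinc diet mice and 2.55 to 2.82 in control diet mice, the 2.55 in control mouse 9. Astrocyte genes averaged 9.55 to 9.68 in zinc diet mice and 9.54 to 9.70 in control diet mice. The 9.54 was in control mouse 9, close to the 9.55 of zinc diet mouse 3. Hippocampal genes averaged 4.58 to 4.68 in zinc diet mice and 4.42 to 4.53 in control diet mice, with the 4.42 in control mouse 9. Of these 8 genes, 5 stayed under 4 on all 6 arrays. The 13 genes of amygdala neurons averaged 10.29 to 10.37 in zinc diet mice and 10.02 to 10.19 in control diet mice, with the 10.02 in control mouse 9. Whether these low means bear on the choroid plexus values of that mouse was not tested.

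Genes next to the 10 on their chromosomes varied less. Of 22 nearest or overlapping protein-coding genes in the RefSeq table, 20 were measured. Their ranges over the 6 mice were 0.088 to 0.74 units, and none reached 1, which only 1.73% of all genes did. In 4 of the 20 control mouse 9 was highest, beside 15.7% of all genes. Among them was Cln6, next to Calml4, with 3.83, 3.85 and 3.68 in zinc diet mice 3, 7 and 10, against 3.97, 4.15 and 3.87 in control mice 1, 9 and 11 (r = 0.97 with Ttr over a range of 0.47 units). Gigyf2, whose span overlaps Kcnj13, had 8.18, 8.51 and 8.29 in zinc diet mice 3, 7 and 10, against 8.26, 8.23 and 8.34 in control mice 1, 9 and 11. Lrrc61, which overlaps Rarres2, had 6.28, 6.37 and 6.27 in zinc diet mice 3, 7 and 10, against 6.51, 6.23 and 6.22 in control mice 1, 9 and 11, so it did not separate the diets. Kcne2 and Clic6 both lie on chromosome 16 with Rcan1 beside Clic6, and Rcan1 was lowest in control mouse 9, at 9.90.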

How the data were processed

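Amygdala RNA, 500 ng per mouse, was labelled with a 3′ in vitro transcription kit and hybridised to Affymetrix Mouse430_2 arrays, per the labels' protocols. The deposited values are on a log2 scale, as read from the values. The submitters' processing notes name R 2.15.1 and GCRMA 2.28.0 and give no role for them; other steps are not given in the sources used here. Background correction can stretch or compress differences near the low end. Each label names a separate mouse, litters and cages are not stated, and 3 arrays per diet limit precision.

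Of 45101 probe sets, 64 controls were left out. The platform annotation gave 1 symbol to 34958, several to 932 and none to 9211. Each gene was read from the probe set of its own with the highest mean. Diets were compared with limma 3.58.1 (R 4.3.3; diet alone in the model, moderated two-sided test) over probe sets with a mean of at least 4, with Benjamini-Hochberg adjustment; the fit was tested on simulated data. Likeness used two-sided exact permutation tests. The genes, lists and tests were chosen with earlier results of these data known. Named were all 10 genes, up to 3 genes per further list by range, up to 12 most like Ttr, and neighbouring protein-coding genes. Enpp2, Prlr, Mfrp, 1 endothelial and 2 red blood cell genes had no probe set of 1 symbol and were not analysed here. Alternatives changed the filter, scaling, variance model, array weights, probe set summary, covariate, floor and the mice included.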

Additional observations from a re-analysis of the deposited data

How the results depend on the processing

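With all 6 mice kept, the 10 genes kept their direction and 0 passed the adjusted threshold under the 10 alternatives tried for each, and their median change stayed between -0.72 and -0.54. Setting values under 4 to 4 gave -0.67 in place of -1.32 for Kcne2 and -1.06 in place of -1.87 for Calml4, and array weights gave -0.13 in place of -0.21 for Igf2. Leaving out 1 mouse at a time, the median ran between -1.15 and -0.027, highest without control mouse 9. By gene these ranges were -2.51 to -0.79 for Ttr, -1.14 to 0.21 for Kl, -1.23 to -0.026 for Clic6, -2.03 to 0.28 for Kcnj13, -1.06 to -0.041 for Sostdc1, -2.09 to -0.029 for Kcne2, -2.69 to -0.47 for Calml4, -0.53 to 0.35 for Igf2, -0.94 to 0.036 for Col8a1 and -0.45 to -0.37 for Rarres2. Without control mouse 9 and zinc diet mouse 10, added once the data had been seen, the median was 0.097, with Kl at 0.29, Clic6 at 0.19, Kcnj13 at 0.27, Sostdc1 at 0.0039, Kcne2 at 0.0087, Igf2 at 0.42 and Col8a1 at 0.19, and with Ttr at -0.0034, Calml4 at -0.28 and Rarres2 at -0.35. The median r with Ttr was 0.60 with Spearman's rho, 0.26 without those 2 mice, and 0.58 to 0.96 leaving out 1 mouse, lowest without control mouse 9 and highest without zinc diet mouse 10.

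Over all probe sets 0 passed in limma, with 1460 at an unadjusted p under 0.05. The count was 2 with a mean of at least 6, 3 with trend and robust eBayes, and 1 each when genes were reduced to a single probe set, when probe sets were averaged within genes and when the title number was a covariate; the calls were Rgs9, Foxp2 and Scn4b, and none of the 10 genes, and 0 leaving out any 1 mouse. At an unadjusted p under 0.01 there were 349, with 550 under no filter, 628 with array weights, and 176 (without zinc diet mouse 7) to 558 (without control mouse 1). The causes were not tested. Values near 4 and below cannot be told from background, which limits Kcnj13, Kcne2, Calml4 and Kl to 1 mouse. No paired analysis was possible because the diets share no replicate number.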

Other observations

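Outside control mouse 9, cases of a single mouse standing at least 1 unit above all others were few. Pmch, the precursor gene of melanin-concentrating hormone, a hypothalamic peptide, had 9.0 in zinc diet mouse 7, against 2.84 to 4.01 in the other 5 mice. Avp, the vasopressin gene, had 9.84, 9.14 and 4.73 in zinc diet mice 3, 7 and 10, against 10.96, 4.38 and 5.63 in control mice 1, 9 and 11. Mog, a myelin gene, had 7.85 in zinc diet mouse 7, against 5.91 to 6.84 in the other 5 mice. In all 3 genes control mouse 9 was the lowest, as it was in 23.2% of all genes. Its Pmch level of 2.84 was below 4 and cannot be told from background.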
